A study of Rattus norvegicus with 54 samples.

Results

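The EGF and FGF receptor families were followed here through 7 genes, 4 receptors of the EGF family (Egfr, Erbb2, Erbb3 and Erbb4) and 3 of the FGF family (Fgfr1, Fgfr2 and Fgfr3), in cultures and tissue of the rat central nervous system. The members were taken by name: each is the gene symbol listed first for a probe set in the authors' summary table, and each of the 7 had 1 probe set of 28 to 41 probes among 27342 main probe sets, with no other gene symbol listed for it. All 7 probe sets were found and all are described. RNA was measured on 54 Affymetrix gene-level arrays, 1 per sample, in 18 groups of 3. The cultures of neural progenitor cells (NPCs), precursors of neurons and glia, were made from Dark Agouti rats, either with experimental autoimmune encephalomyelitis (abbreviated EAE, an autoimmune inflammation induced to model multiple sclerosis) or healthy, called naive.

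Cultures were started from the cervical, thoracic or caudal spinal cord, or from the subventricular zone (SVZ), a germinal zone beside the forebrain ventricles. Each region and disease state was profiled after passage 2 followed by 5 days of differentiation, and after passage 2 alone, which gives 16 culture groups. The other two groups were SVZ biopsies, tissue that was not cultured, from EAE and from naive rats. The labels give no strain for the biopsies, no age, no culture medium and no way of inducing EAE, and they do not say whether the replicates were separate animals. The p-values therefore measure only how far these samples scatter, which can be technical scatter. Values are PLIER signals on a linear scale, and changes are differences of log2(signal + 16), which makes the changes of dim genes look smaller than they are. A gene was called when its limma fit gave an adjusted p of at most 0.05 and a fold of at least 1.2, and it was tested where its signal exceeded 50 on at least 3 arrays of the fit. Errors beside log2 changes are standard errors (SE).

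Receptors of both families are single-span membrane proteins with a tyrosine kinase inside the cell. Ligand binding pairs the receptors, the kinases phosphorylate each other, and adaptor proteins pass the signal to Ras, the ERK kinases and other cascades. EGFR binds EGF, TGF-alpha and HB-EGF. ErbB2 has no known ligand and serves as the partner of the others, ErbB3 binds neuregulins but has a weak kinase, and ErbB4 binds neuregulins with an active kinase. FGFR1, FGFR2 and FGFR3 bind FGFs together with heparan sulfate. EGF and FGF2 are the usual growth factors for expanding neural progenitors in culture, although the labels do not say what was added here. In the central nervous system Egfr is known from dividing SVZ progenitors, Erbb3 and Fgfr2 from oligodendrocyte lineage cells, and Fgfr3 from astrocytes and ventricular zone cells.

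On the 54 arrays main probe sets had median signals of 51.6 to 120.1 and background probe sets of 19.0 to 36.1. The 3 arrays per group limit the precision. In 5 naive culture groups at least 1 array correlated with its group at a mean r under 0.96. The least similar array of each was undifferentiated cervical naive 3, undifferentiated thoracic naive 2, differentiated SVZ naive 3, differentiated cervical naive 1 and differentiated thoracic naive 3, with mean r between 0.855 and 0.959. Some results that rest on these groups are also given without these 5 arrays, a choice made after the correlations were seen. The cord cultures carried markers of several cell types. The median Mbp signal, from the myelin basic protein gene, was between 3873 and 9493 in every cord culture group and between 245 and 793 in every SVZ culture group. Nes, the gene of the progenitor filament nestin, had group medians of 156 to 352.5 in cord cultures and 894 to 2105 in SVZ cultures. Before differentiation Sox2, another progenitor gene, had group medians of 1406 to 2831 in cord and 2574 and 2631 in SVZ cultures. The list of 10 neural stem and progenitor markers then had a median mean log2 signal of 8.55 in cord and 9.25 in SVZ cultures. For the oligodendrocyte progenitor list these medians were 10.8 and 9.01. The label of NPC culture thus covered cord cultures with progenitor markers and a high signal of myelin genes also before differentiation.

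Egfr had the widest range of group means of the 7, 6.16 on the log2 scale, wider than that of 98.97% of the 21273 probe sets tested over all arrays. Erbb3 spanned 5.19, Fgfr2 4.02, Fgfr3 3.51, Fgfr1 3.06, Erbb4 1.92 and Erbb2 1.72, beside a median of 1.25 over all tested probe sets. The median SD within a group was between 0.16 (Fgfr3) and 0.31 (Egfr) on the same scale. Signals above 50 were found on all 54 arrays for Fgfr1 and Fgfr2, on 51 for Erbb2, Erbb4 and Fgfr3, on 47 for Erbb3 and on 28 for Egfr. When the 18 groups were ordered by their mean, 14 of the 17 pairs of neighbours overlapped for Egfr and Fgfr2, 15 for Erbb3, Fgfr1 and Fgfr3, and all 17 for Erbb2 and Erbb4. The order of groups is therefore resolved only between far steps.

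**Figure D1:**
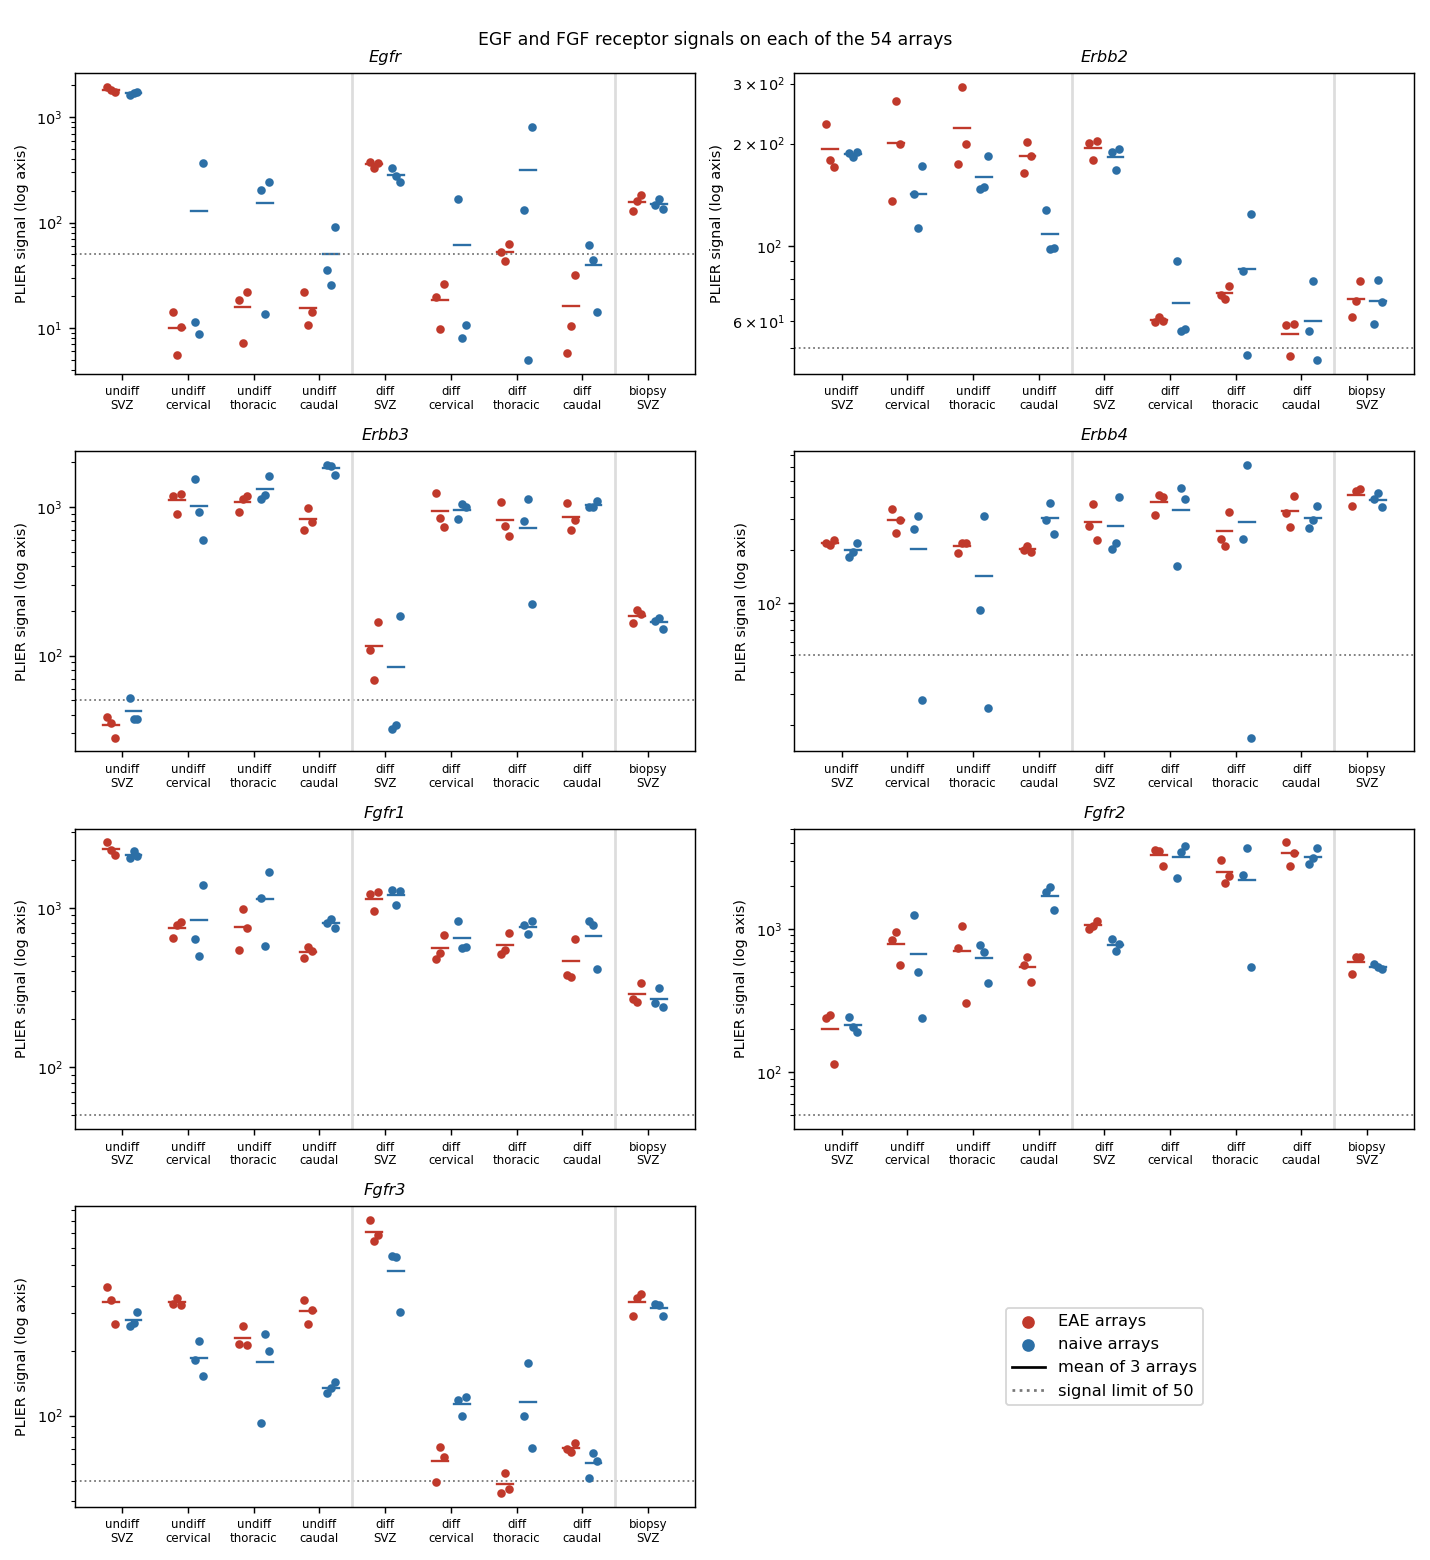
PLIER signal (log axis) of each receptor gene on each of the 54 arrays, by stage and region, with EAE arrays in red left of naive arrays in blue, horizontal bars for the mean of 3 arrays and a dotted line at a signal of 50. Egfr is between 1608 and 1939 on all 6 undifferentiated SVZ arrays and under 25 on all 9 undifferentiated EAE cord arrays, whereas Erbb3 is above 220 on every cord array.

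Egfr, the receptor for EGF and TGF-alpha, was a gene of the SVZ cultures. Over the 36 cord culture arrays its signal had a lowest value of 4.98, a median of 20.8 and a highest value of 799, and 26 of them were at or under 50. Undifferentiated SVZ cultures had 1939, 1825 and 1725 from EAE rats and 1608, 1706 and 1721 from naive rats. Differentiated SVZ cultures had 374, 331 and 371 from EAE rats and 328, 276 and 244 from naive rats. Most cord arrays thus lay at the level of the background probe sets, and the SVZ arrays of either stage did not overlap the EAE cord arrays. The mean over the group was highest in undifferentiated SVZ EAE cultures, then in undifferentiated SVZ naive cultures.

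Erbb3, the neuregulin receptor with a weak kinase, had the opposite distribution. Cord cultures ranged from 222 to 1926 with a median of 997 over 36 arrays. Undifferentiated SVZ cultures had 38.8, 35.5 and 28.1 from EAE rats and 51.9, 37.6 and 37.4 from naive rats, so that 1 of the 6 arrays exceeded 50. In differentiated SVZ cultures Erbb3 had 109.7, 68.4 and 169 from EAE rats and 32.3, 34.3 and 186 from naive rats, with naive replicate 3 alone far above its group. That array also had the highest myelinating oligodendrocyte list of the SVZ culture arrays, a mean log2 signal of 10.5, against 7.47 and 7.27 in its group, and a microglia and macrophage list of 7.58, against 5.20 and 5.21. The part of these cells in the Erbb3 value was not tested.

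Erbb2, the partner receptor without a ligand, and Erbb4, the other neuregulin receptor, varied least. Erbb2 lay between 47.6 and 293 in EAE cord cultures and between 46.2 and 184 in naive cord cultures (18 arrays each), and between 167 and 228 over the 12 SVZ culture arrays. Erbb4 lay between 183.6 and 403 over the SVZ culture arrays and between 192 and 414 over the 18 EAE cord arrays. Among naive cord arrays it ranged from 16.9 to 617, with 3 of 18 at or under 50. Those 3 low arrays were undifferentiated cervical naive 3 (27.9), undifferentiated thoracic naive 3 (25.1) and differentiated thoracic naive 3 (16.9).

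Fgfr1, an FGF receptor known from neural progenitors, was above 50 on every array. It ranged from 240.3 to 336 in biopsies, from 370 to 1673 in cord cultures and from 957 to 2583 in SVZ cultures. Fgfr2 ranged from 486 to 639 in biopsies, from 238 to 4036 in cord cultures and from 114 to 1129.7 in SVZ cultures. Fgfr3 ranged from 289 to 368 in biopsies, from 43.9 to 352 in cord cultures and from 259 to 809.6 in SVZ cultures. The Fgfr1 signals of cord and undifferentiated SVZ cultures did not overlap, while those of Fgfr2 and Fgfr3 overlapped between cord and SVZ when the stages were pooled.

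The promoters of Egfr, Fgfr2 and Fgfr3 are shown for their base composition. Among the members with a promoter entry, these had the widest range of group means. RefSeq's promoter table for assembly GRCr8 matched 5 of the 7 members by gene identifier, and Erbb3 and Fgfr1 were not among them. Each sequence below is the 250 bases before the annotated start of the gene, 5′ to 3′ on the gene's strand, with every GC box (GGGCGG or its complement CCGCCC, the letters bound by Sp1-type factors) in capitals. The Egfr window is chr14:95378376-95378625 on the plus strand, the Fgfr2 window is chr1:194280915-194281164 on the minus strand, and the Fgfr3 window is chr14:81227210-81227459 on the minus strand.
Egfr: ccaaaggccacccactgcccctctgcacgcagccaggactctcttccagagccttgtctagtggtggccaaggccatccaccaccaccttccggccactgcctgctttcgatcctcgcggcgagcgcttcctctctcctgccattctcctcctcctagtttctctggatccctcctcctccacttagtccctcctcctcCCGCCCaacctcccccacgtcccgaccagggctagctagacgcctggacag
Fgfr2: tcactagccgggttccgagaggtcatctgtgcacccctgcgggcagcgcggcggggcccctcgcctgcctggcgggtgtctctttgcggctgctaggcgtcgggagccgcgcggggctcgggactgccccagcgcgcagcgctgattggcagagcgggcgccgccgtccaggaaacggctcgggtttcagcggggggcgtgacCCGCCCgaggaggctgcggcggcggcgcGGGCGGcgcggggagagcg
Fgfr3: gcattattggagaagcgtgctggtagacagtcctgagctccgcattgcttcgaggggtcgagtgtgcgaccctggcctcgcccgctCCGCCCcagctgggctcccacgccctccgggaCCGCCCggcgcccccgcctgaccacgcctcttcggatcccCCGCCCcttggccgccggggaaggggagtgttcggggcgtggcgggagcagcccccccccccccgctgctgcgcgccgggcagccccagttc
The Egfr window held 1 GC box, the Fgfr2 window 2 and the Fgfr3 window 3. Erbb2 and Erbb4, whose windows are not printed, held 1 each. On either strand, 30.5% of the 33469 promoter windows of this length in the table held a GC box. None of the 5 windows held TATAAA or its complement TTTATA, which 12.9% of all windows held. G and C made up 63.6% of the Egfr window, 76.8% of the Fgfr2 window and 74.4% of the Fgfr3 window, beside a median of 51.2% over all windows. These matches describe the letters of the sequence and not binding.

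The comparison of cord with SVZ cultures asked how the receptors differ between the places the cultures came from. In all 4 comparisons (2 disease states at 2 stages) Erbb3 and Fgfr2 were higher in cord cultures and Fgfr1 was lower. Egfr was lower in 3 of the 4. In EAE undifferentiated cultures 4 of the 7 members were called, where 47.7% of all tested probe sets were. In EAE differentiated cultures 6 were called, against a background of 61.3%. In naive undifferentiated cultures 6 were called against a background of 22.9%, and in naive differentiated cultures 5 against 22.5%. The comparisons of region, stage and disease reuse the same 48 culture arrays. Since these are bulk cultures, fewer cells of a type and less RNA per cell cannot be told apart in any of these differences.

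Among EAE undifferentiated cultures, Egfr had a lowest signal of 5.52, a median of 14.2 and a highest signal of 21.8 on the 9 cord arrays, against 1939, 1825 and 1725 in SVZ. The log2 difference was -5.98 ± 0.15 (adjusted p = 3.43e-13). Since the cord arrays lay at the level of the background probe sets, the size of this difference is set by the added 16. Among naive undifferentiated cultures the cord arrays had a lowest signal of 8.72, a median of 35.4 and a highest signal of 365, against 1608 to 1721 in SVZ, and the difference was -4.45 ± 0.87 (adjusted p = 0.0051). Without the 5 least similar arrays it was -4.55 (adjusted p = 3.26e-07). That setting removes the high cervical naive array (365) and the low thoracic naive array (13.7). The spread within these groups was thus taken out by the choice of arrays, and the small p does not count it. Leaving out replicate 1 or replicate 2 of all groups ended the call, with an adjusted p of up to 0.129. After differentiation the EAE difference was -3.18 ± 0.20 (adjusted p = 2.85e-09). The naive cord arrays then spanned 4.98 to 799 and overlapped the SVZ arrays, with a difference of -2.08 ± 0.92 that was not called (adjusted p = 0.141). A single fit of all 18 groups called it. Without the 5 least similar arrays it was -2.92 and called (adjusted p = 0.00615). That setting removes the highest naive cord signals, 799 on thoracic replicate 3 and 166 on cervical replicate 1, and the lowest naive SVZ signal, 244. The overlap was thus taken out by the choice of arrays, and the smaller p does not count it.

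Erbb3 on the 9 undifferentiated EAE cord arrays had a lowest signal of 700.0, a median of 989 and a highest signal of 1226, far above the SVZ arrays at 28.1 to 38.8. The difference was 4.33 ± 0.14 (adjusted p = 2.11e-12), and it was 4.51 ± 0.24 in naive cultures (adjusted p = 1.24e-06). With 1 of the 6 undifferentiated SVZ arrays above 50, the sizes of these differences also depend on the added 16. It was 2.79 ± 0.22 in EAE differentiated cultures (adjusted p = 4.54e-08) and 3.43 ± 0.49 in naive ones (adjusted p = 0.000632), where the call was lost without replicate 1 of all groups (adjusted p = 0.0676). In none of the 4 comparisons did cord and SVZ arrays overlap.

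Fgfr2 differed by 1.65 ± 0.30 in EAE undifferentiated cultures (adjusted p = 0.000402), by 1.87 ± 0.39 in naive undifferentiated ones (adjusted p = 0.00678), by 1.48 ± 0.14 in EAE differentiated ones (adjusted p = 2.34e-07) and by 1.70 ± 0.44 in naive differentiated ones (adjusted p = 0.0181). The naive cord arrays overlapped the SVZ arrays at both stages and the EAE cord arrays did not. Fgfr1 differed by -1.80 ± 0.15 and -1.31 ± 0.33 in EAE and naive undifferentiated cultures (adjusted p = 1.11e-07 and 0.0174). After differentiation it differed by -1.09 ± 0.17 and -0.80 ± 0.21 in EAE and naive cultures (adjusted p = 4.44e-05 and 0.0188). The cord arrays stayed under the SVZ arrays in each case. The naive calls of Fgfr2 and Fgfr1 at both stages were lost without replicate 1 or without replicate 2 of all groups, with an adjusted p of up to 0.234.

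For Erbb2 and Fgfr3 the difference between cord and SVZ was larger after differentiation than before it. By a test of the difference between stages, this was not called for Erbb2 in naive cultures (-0.81, adjusted p = 0.0711). Erbb2 in undifferentiated cultures differed between cord and SVZ by 0.04 ± 0.18 in EAE (adjusted p = 0.857) and by -0.43 ± 0.13 in naive cultures (adjusted p = 0.0393). The naive call was lost in 5 of 11 alternatives, under quantile normalization, under 75th percentile scaling and without any 1 replicate number, with an adjusted p of up to 0.252. In differentiated cultures the differences were -1.42 ± 0.09 in EAE (adjusted p = 3.9e-09) and -1.24 ± 0.23 in naive cultures (adjusted p = 0.00294), with no overlap, and the naive call was lost without replicate 1 of all groups (adjusted p = 0.0869). Fgfr3 likewise differed by -0.20 ± 0.12 in EAE undifferentiated cultures (adjusted p = 0.194) and by -0.73 ± 0.22 in naive ones (adjusted p = 0.0378), a call lost without any 1 replicate number (adjusted p of up to 0.158). After differentiation the differences were -3.27 ± 0.11 in EAE (adjusted p = 3.59e-12) and -2.13 ± 0.24 in naive cultures (adjusted p = 0.000138), with no overlap. Erbb4 differed by -0.26 to 0.14 and was called in none of the 4 comparisons, with adjusted p between 0.475 and 0.953. In EAE differentiated cultures it was called under quantile normalization and under 75th percentile scaling, with a change of up to 0.60 and an adjusted p down to 0.00263.

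**Figure D2:**
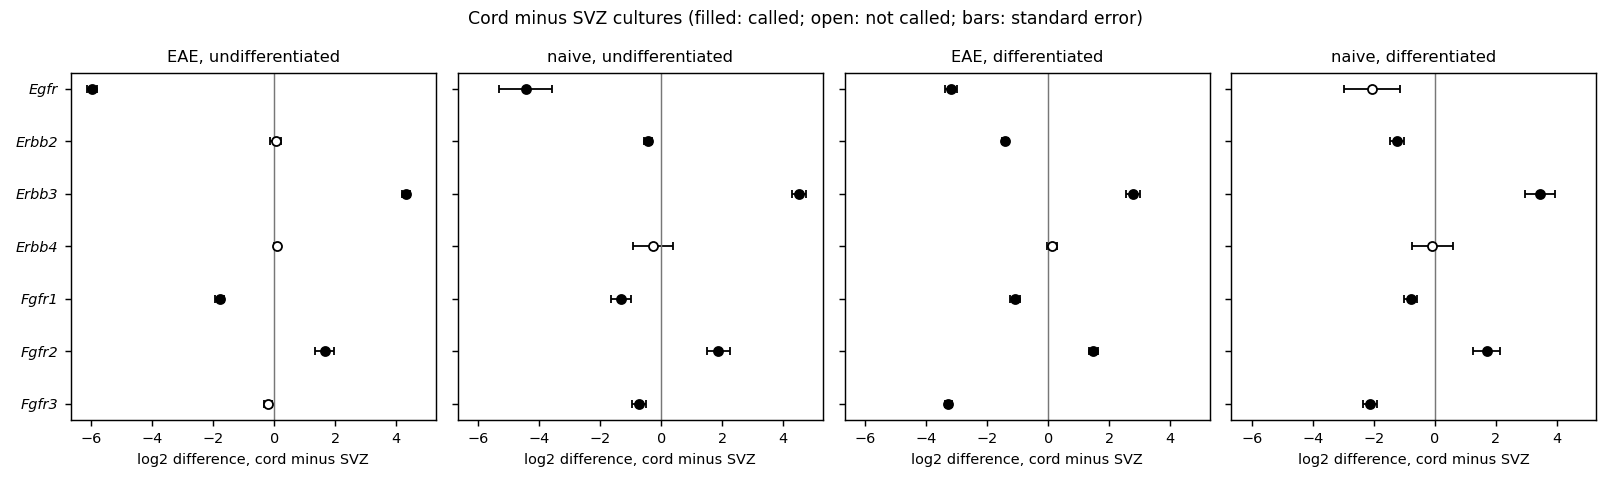
Log2 difference between cord cultures (mean of 3 levels) and SVZ cultures for the 7 receptor genes, in EAE and naive cultures at each stage; points are limma estimates, bars are standard errors, filled points were called and open points were not. Erbb3 and Fgfr2 lie right of 0 in every panel, Fgfr1 lies left of 0, and Fgfr3 moves to -3.27 in EAE differentiated cultures.

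Differentiation for 5 days was next compared within each region. Fgfr2 rose in all 4 comparisons. Egfr and Fgfr1 fell in EAE SVZ cultures. In naive SVZ cultures both also lay lower after differentiation without overlap, but the main fit did not call them. Erbb2 fell in cord cultures of both disease states, and Fgfr3 fell in cord cultures of both disease states and rose in EAE SVZ cultures. In EAE cord cultures 6 members were called against a background of 53.7% of all tested probe sets, and in EAE SVZ cultures 5 against 40%. In naive cord cultures 3 were called against 33.5%, and in naive SVZ cultures 1 against 14%.

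Fgfr2, a receptor known from oligodendrocyte lineage cells and astrocytes, had 1007, 1041 and 1129.7 in differentiated EAE SVZ cultures, against 239, 251 and 114 in undifferentiated ones. In naive SVZ cultures it had 849, 700.1 and 785 after differentiation, against 244, 206 and 189.9 before. EAE cord cultures ranged from 2089 to 4036 with a median of 3025 after differentiation, against 303 to 1049 with a median of 635 before. Every differentiated array was above every undifferentiated array of its region in these 3 comparisons, with changes of 2.37 ± 0.32, 1.79 ± 0.53 and 2.21 ± 0.18 (adjusted p = 2.46e-06, 0.0302 and 4.42e-10). In naive cord cultures the arrays overlapped, with 539 to 3798 after differentiation and 238 to 1948 before, and the change was 1.62 ± 0.31 (adjusted p = 0.000753). The naive SVZ call was lost when replicate 1 or replicate 2 of all groups was left out, with an adjusted p of up to 0.243.

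Fgfr3, a receptor known from astrocytes, had 809.6, 642 and 690.2 in differentiated EAE SVZ cultures, against 397, 344 and 267 in undifferentiated ones. Differentiated EAE cord cultures had a lowest signal of 43.9, a median of 64.1 and a highest signal of 75.04 over 9 arrays, against 212, 308 and 352 before differentiation. All EAE SVZ arrays were higher after differentiation and all EAE cord arrays were lower. The list of 9 astrocyte markers moved the same way, with a mean log2 signal of 11.2 to 11.4 on differentiated EAE SVZ arrays, against 9.42 to 9.43 on undifferentiated ones, and of 6.80 to 7.49 on differentiated EAE cord arrays, against 7.65 to 8.76. The median signal of Gfap in EAE SVZ cultures was 5605 after differentiation, against 40.1 before. The part of these cells in the Fgfr3 changes was not tested. The change was 1.06 ± 0.14 in SVZ (adjusted p = 2.42e-06) and -2.00 ± 0.08 in cord (adjusted p = 2.6e-15). The difference between these changes, cord minus SVZ, was itself called at -3.07 (adjusted p = 5.22e-13), where 5 members and 41.1% of all tested probe sets were called.

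In naive cultures Fgfr3 had 553, 542 and 304 in differentiated SVZ, against 259, 270.1 and 301 in undifferentiated SVZ, and the lowest differentiated array lay just above the highest undifferentiated one. The change of 0.68 ± 0.29 was not called (adjusted p = 0.141). Naive cord arrays ranged from 51.6 to 175 after differentiation, against 92.6 to 239 before, and fell by 0.72 ± 0.17 (adjusted p = 0.00341). The difference between the naive changes was called at -1.40 (adjusted p = 0.0134), where Fgfr3 was the only member called and the background was 8.48%. That call was lost without replicate 1 or without replicate 2 of all groups, with an adjusted p of up to 0.209.

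Egfr in SVZ cultures fell with differentiation in EAE, where the signals of 374, 331 and 371 stood against 1939, 1825 and 1725. The change was -2.30 ± 0.24 (adjusted p = 3.78e-08). In naive SVZ cultures the signals of 328, 276 and 244 stood against 1608, 1706 and 1721. The arrays were as far apart there, with a change of -2.51, but the fit over 24 naive arrays gave a standard error of 1.16 and no call (adjusted p = 0.173). With the 6 SVZ arrays alone in the fit, an alternative chosen after the data were seen, the same change had a standard error of 0.12 and was called (adjusted p = 2.86e-05), and so were Fgfr1 at -0.84, Fgfr2 at 1.79 and Fgfr3 at 0.68. The share of all tested probe sets called in that fit is not given here, so the higher count is not read as a result about the members. In EAE cord cultures Egfr changed by 0.50 ± 0.14 (adjusted p = 0.00296), between 5.80 and 63.04 after differentiation and between 5.52 and 21.8 before. All but 2 of these 18 arrays were under a signal of 50, and the call was lost with all 18 groups in 1 fit and without replicate 3 of all groups, with an adjusted p of up to 0.392. In naive cord cultures the change of -0.14 ± 0.67 was not called.

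Fgfr1 fell in differentiated EAE SVZ cultures, with 1220.5, 957 and 1249.9, against 2583, 2318 and 2139.9 in undifferentiated ones. The change was -1.03 ± 0.20 (adjusted p = 0.000293), with no overlap. Naive SVZ cultures had Fgfr1 signals of 1288, 1043 and 1271 after differentiation, against 2070, 2264 and 2128.5 before. These did not overlap either, but the main fit gave no call. In EAE cord cultures it fell by 0.33 ± 0.12 (adjusted p = 0.0185), and the arrays overlapped. The call was lost under quantile normalization, under 75th percentile scaling, with all 18 groups in 1 fit and without replicate 2 of all groups, with an adjusted p of up to 0.994. Naive cord cultures had a change of -0.33 ± 0.20 that was not called (adjusted p = 0.204).

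Erbb2 fell by 1.45 ± 0.10 in EAE cord cultures (adjusted p = 3.49e-11), with 47.6 to 76.2 after differentiation and 136 to 293 before, and no overlap. In naive cord cultures it fell by 0.83 ± 0.14 (adjusted p = 0.000188), with 46.2 to 124 after and 97.8 to 184 before. SVZ cultures showed changes of 0.02 ± 0.18 in EAE and -0.03 ± 0.23 in naive cultures (adjusted p = 0.936 and 0.967). The EAE change differed between cord and SVZ by -1.47 (adjusted p = 3.84e-06), and the naive change by -0.81, which was not called (adjusted p = 0.0711).

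Erbb3 rose in EAE SVZ cultures, with 109.7, 68.4 and 169 after differentiation, against 38.8, 35.5 and 28.1 before, a change of 1.33 ± 0.25 (adjusted p = 0.000146). In naive cultures it had changes of 0.45 ± 0.50 in SVZ and -0.64 ± 0.29 in cord, neither called (adjusted p = 0.641 and 0.0921). In EAE cord cultures its change was -0.21 ± 0.14 (adjusted p = 0.2), and the difference between cord and SVZ was called at -1.54 (adjusted p = 0.000113). The list of 12 myelinating oligodendrocyte markers moved with Erbb3 in SVZ: its mean log2 signal was between 8.02 and 9.14 on differentiated EAE arrays, against 6.74 to 7.38 on undifferentiated ones. The list also rose in EAE cord cultures, from 10.17 to 11.22 before differentiation to 11.53 to 11.95 after it, where Erbb3 did not rise. Erbb4 was called in EAE cord cultures alone, with a change of 0.42 ± 0.10 (adjusted p = 0.000958) and overlapping arrays. The difference between regions in EAE cultures was also called for Fgfr1, at 0.70 (adjusted p = 0.0193). For Egfr it was 2.80, but none of the 9 undifferentiated EAE cord arrays was above a signal of 50, so that a fall could not have been measured in cord and the value is no measure of a difference between regions.

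**Figure D3:**
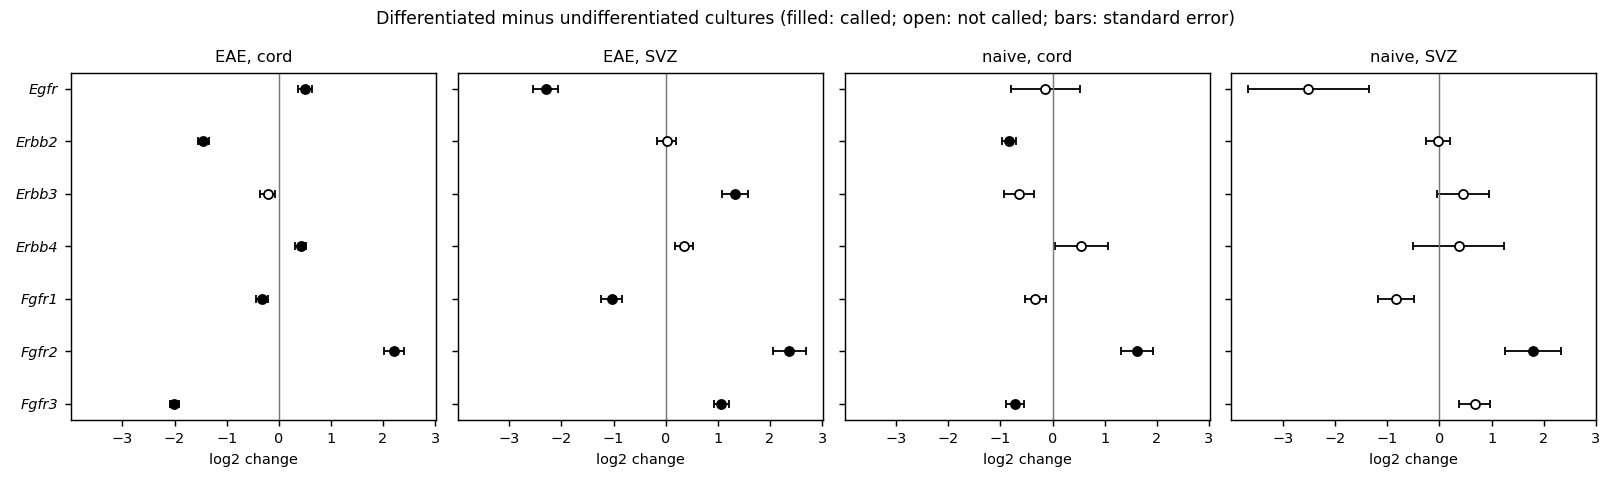
Log2 change with 5 days of differentiation (differentiated minus undifferentiated) for the 7 receptor genes in cord and SVZ cultures from EAE and naive rats; points are limma estimates, bars are standard errors, filled points were called and open points were not. Fgfr2 lies right of 0 in every panel, and Fgfr3 lies at -2.00 in EAE cord and at 1.06 in EAE SVZ cultures.

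The comparison of EAE with naive rats is the one the series was designed for. It called no member in SVZ cultures or SVZ biopsies, and of the single regions only undifferentiated caudal cord cultures gave calls. In those cultures all 6 members tested were called, where 17.2% of all tested probe sets were. Erbb2 and Fgfr3 were higher and Erbb3, Erbb4, Fgfr1 and Fgfr2 lower. No member was called in undifferentiated cervical, thoracic or SVZ cultures, where 0%, 0% and 0% of all tested probe sets were called and 1865, 1115 and 1976 of them had an unadjusted p under 0.05.

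Fgfr2 had 563.8, 635 and 429 in undifferentiated caudal EAE cultures, against 1813, 1948 and 1364 in naive ones. Erbb3 had 700.0, 989 and 787 in EAE, against 1926, 1894 and 1627 in naive cultures. Fgfr3 had 345, 267 and 308 in EAE, against 127.5, 134.5 and 142.7 in naive cultures. The groups did not overlap for any of the 3 genes, nor for any other member. The share of all tested probe sets without overlap is not given here. By limma, 5760 of the 17590 tested probe sets had an unadjusted p under 0.05. The changes of Fgfr2, Erbb3 and Fgfr3 were -1.63 ± 0.19, -1.13 ± 0.16 and 1.09 ± 0.14 (adjusted p = 0.000277, 0.00106 and 0.000661).

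Erbb2 in the same cultures had 164, 202 and 184 in EAE, against 127.7, 97.8 and 98.7 in naive ones, a change of 0.69 ± 0.15 (adjusted p = 0.012). Fgfr1 had 483, 566 and 537 in EAE, against 806, 846 and 745, a change of -0.58 ± 0.14 (adjusted p = 0.016) that lost its call in 5 of 13 alternatives, 3 of them the loss of a single array, with an adjusted p of up to 0.203. Erbb4 had 201, 212 and 195 in EAE, against 296, 372 and 248, a change of -0.54 ± 0.16 (adjusted p = 0.0437) that lost its call in 10 of 13 alternatives. Fgfr3 kept its call in all 13, with adjusted p of up to 0.0438. Egfr was too dim to be tested, with 21.8, 10.6 and 14.2 in EAE, against 35.4, 25.4 and 90.0 in naive cultures. The methods' t-test, run here on log2 values with adjusted p and the fold limit, called only Fgfr3 of the members. The authors' deposited p-values are unadjusted. They were 0.00717 for Erbb2, 0.00149 for Erbb3, 0.0480 for Erbb4, 0.00209 for Fgfr1, 0.00334 for Fgfr2 and 0.0017 for Fgfr3.

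Marker lists of several cell types also differed between these groups. The mean log2 signal of 17 microglia and macrophage markers was between 7.92 and 8.34 on the caudal EAE arrays, against 5.08 to 5.63 on the naive ones. Aif1, a microglial calcium-binding protein, had a median signal of 158 in EAE, against 7.4 in naive cultures, and C1qa, a complement gene of microglia, had 784 in EAE, against 9.4. The list of 11 fibroblast and pericyte markers on the arrays was between 5.42 and 7.52 in EAE, against 8.20 to 9.12, and the myelinating oligodendrocyte list between 10.2 and 10.5, against 11.4 to 11.6. The astrocyte list lay between 7.65 and 8.09 in EAE, against 8.53 to 9.68, and was thus lower where Fgfr3 was higher. The Schwann cell list lay between 8.23 and 8.58 in EAE, against 8.99 to 9.13. The part of all these cells in the receptor changes was not tested.

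Averaged over the 3 cord levels, undifferentiated EAE cultures had 3 members called, where 13.6% of all tested probe sets were. Fgfr3 was higher by 0.78 ± 0.13 (adjusted p = 0.00108). Its signals in cervical cultures were 329, 352 and 328 in EAE, against 181, 222 and 153 in naive ones. In thoracic cultures they were 215, 261 and 212, against 92.6, 239 and 199. The EAE arrays lay above the naive arrays at the cervical and caudal levels and overlapped them at the thoracic level. The call held in all 11 alternatives, with adjusted p of up to 0.0494. Erbb2 was higher by 0.51 ± 0.12 (adjusted p = 0.0107), with overlap at the cervical and thoracic levels, and its call was lost without replicate 2 or without replicate 3 of all groups, with an adjusted p of up to 0.148.

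Egfr was lower in undifferentiated EAE cord cultures, with a change of -1.40 ± 0.46 (adjusted p = 0.0452). The naive signal was high on cervical replicate 3 (365) and on thoracic replicates 1 and 3 (205 and 245), while cervical replicates 1 and 2 and thoracic replicate 2 had 11.4, 8.72 and 13.7. The EAE arrays lay between 5.52 and 21.8, none above 50. Thus EAE and naive arrays overlapped at the cervical and thoracic levels, and the mean rests on naive arrays that differ among themselves. The call was lost in 5 of 11 alternatives (quantile normalization, 75th percentile scaling, the random block over cord levels, and without replicate 1 or replicate 3 of all groups), with adjusted p of up to 0.34. Without the 5 least similar arrays the change was -1.31 (adjusted p = 4.49e-06). That setting removes the high cervical naive array and the low thoracic naive array (13.7). Only the low cervical replicates 1 and 2 and the high thoracic replicates 1 and 3 were left of these naive groups. The spread within these groups was thus taken out by the choice of arrays, and the small p does not count it. Under that setting 6 members were called, with Erbb3 at -0.53, Erbb4 at 0.42 and Fgfr1 at -0.36 (adjusted p = 0.00299, 0.0296 and 0.0183) added. The share of all tested probe sets called under it is not given here, so the higher count is not read as a result about the members.

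After differentiation Fgfr3 was the only member called over the cord, and its mean change had the opposite sign. In differentiated cervical cultures it had 49.2, 71.7 and 64.1 in EAE, against 118, 99.6 and 122 in naive ones, and in thoracic cultures 43.9, 54.4 and 45.6, against 99.8, 175 and 70.9. In caudal cultures it had 69.9, 68.2 and 75.04 in EAE, against 51.6, 66.9 and 61.9. The EAE arrays lay under the naive arrays at the cervical and thoracic levels and just above them at the caudal level. No single level gave a call (adjusted p = 0.258, 0.598 and 0.878), where 0.133%, 0% and 0.89% of all tested probe sets were called and no other member was. The mean over the 3 levels was -0.50 ± 0.13 (adjusted p = 0.0346), the only member call there, against a background of 6.23%. It was lost with cord levels of 1 replicate number as a random block (adjusted p = 0.0631), and without replicate 1 or without replicate 2 of all groups, with an adjusted p of up to 0.272. The microglia and macrophage list lay between 6.95 and 8.42 on the 9 differentiated EAE cord arrays, against 4.77 to 7.17 on the naive ones, and between 7.36 and 8.75 on the undifferentiated EAE ones, against 5.08 to 5.82. It was thus higher in EAE at both stages. Gfap, the gene of an astrocyte filament, lay between 145 and 171 in differentiated cervical EAE cultures, against 322 to 611 in naive ones. These groups did not overlap. In differentiated caudal cultures Gfap was also lower in EAE without overlap, at 139.54 to 162.25 against 204.36 to 1102.18, where Fgfr3 was higher. In differentiated thoracic cultures the Gfap signals of EAE and naive arrays overlapped, whereas those of Fgfr3 did not. The list of 9 astrocyte markers lay between 6.80 and 7.49 on the 9 differentiated EAE cord arrays, against 6.80 to 9.29 on the naive ones. The part of these cells in the Fgfr3 values was not tested.

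In group means, the EAE difference in Fgfr3 thus had opposite signs before and after differentiation at the cervical and thoracic levels and was positive at both stages at the caudal level. Of these single levels only undifferentiated caudal cultures gave a call, and the undifferentiated thoracic arrays overlapped. The differentiated EAE cord signals, 43.9 to 75.04, lay near the signal limit of 50. The difference between stages, as a mean over the 3 levels, was tested in a contrast that was added after these values were seen. In a fit of the 48 culture arrays, the effect after differentiation minus the effect before was -1.28 ± 0.19 (adjusted p = 0.000169), and the call held in all 11 alternatives with adjusted p of up to 0.0318. Erbb2 was the other member called, at -0.61 (adjusted p = 0.0252), and it lost the call under the random block and whenever a replicate was left out. Of all tested probe sets 11% were called. The same contrast in SVZ cultures called no member and 0.0741% of all tested probe sets, with an Fgfr3 difference of 0.39 (adjusted p = 1.00). By limma, 577 probe sets had an unadjusted p under 0.05 there.

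In SVZ cultures no member was called at either stage. Fgfr3 had 809.6, 642 and 690.2 in differentiated EAE cultures, against 553, 542 and 304 in naive ones, Fgfr2 had 1007, 1041 and 1129.7, against 849, 700.1 and 785, and Egfr had 374, 331 and 371, against 328, 276 and 244. The groups did not overlap for these 3 genes, but the share of all tested probe sets without overlap is not given here. With changes of 0.64 ± 0.24, 0.44 ± 0.10 and 0.34 ± 0.12 the adjusted p was 0.242, 0.192 and 0.241. Over all tested probe sets the median change was 0.14, and 0% were called (3242 had an unadjusted p under 0.05). Without naive replicate 3, whose microglia and oligodendrocyte lists stood apart, Fgfr2 had a change of 0.45 (adjusted p = 0.04998) and Erbb3 one of 1.34 (adjusted p = 0.0233), and both were called. That array had an Erbb3 signal of 186, against 32.3 and 34.3 in its group, so the Erbb3 call follows from leaving it out. The share of all tested probe sets called without it is not given here, so these calls are not read as a result about the members. Undifferentiated SVZ cultures gave changes between -0.14 (Fgfr2) and 0.25 (Fgfr3), with adjusted p of 0.438 or more, and Erbb3 was too dim to be tested.

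The difference between the cord and SVZ effects of EAE was tested directly. In differentiated cultures it was called for Fgfr3 at -1.14 (adjusted p = 0.0481) and for no other member, where 0.876% of all tested probe sets were called. The call was lost in 8 of 11 alternatives, with adjusted p of up to 0.481. In undifferentiated cultures no member was called and the background was 0.233%. Egfr had a difference of -1.53 there (adjusted p = 0.653). Biopsies of the SVZ gave changes between 0.02 (Erbb2) and 0.14 (Erbb3), each with a standard error of 0.12 or 0.13 and an adjusted p of 0.996 or more, and 0.0151% of all tested probe sets were called.

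**Figure D4:**
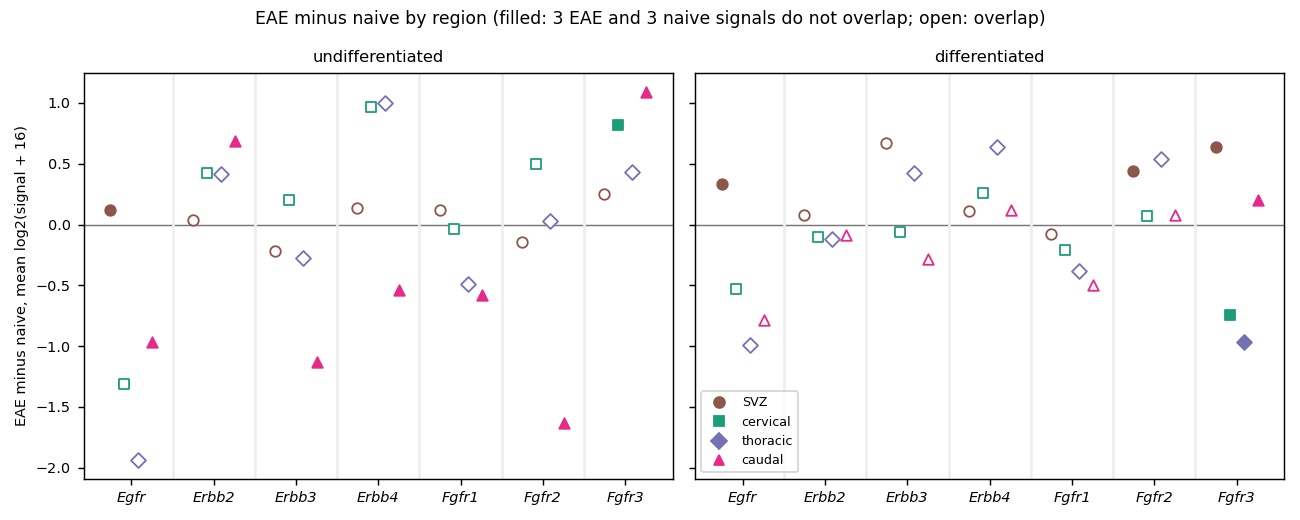
Difference of the group means of log2(signal + 16), EAE minus naive, for the 7 receptor genes in the SVZ and 3 cord levels, undifferentiated on the left and differentiated on the right; filled symbols mark groups of 3 arrays that do not overlap. Fgfr3 is above 0 in all 4 regions before differentiation and below 0 at the cervical and thoracic levels after it, and the caudal symbols of Erbb3, Erbb4, Fgfr1 and Fgfr2 are below 0 before differentiation.

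SVZ biopsies were set against SVZ cultures to see how far culture and tissue differ. Against undifferentiated cultures 6 members were called in EAE, where 79.7% of all tested probe sets were, and 6 in naive samples, where 76.9% were. Against differentiated cultures all 7 were called in EAE (background 74.6%) and 4 in naive samples (background 63.2%). Egfr, Erbb2 and Fgfr1 were lower in biopsies in all 4 comparisons. A share this near the background says little about the receptors as a group, so the sizes are given for each gene.

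Fgfr1 had 267, 256 and 336 in EAE biopsies and 255, 312 and 240.3 in naive ones, under every SVZ culture array of either stage. Its differences from undifferentiated cultures were -2.97 ± 0.12 in EAE and -2.94 ± 0.12 in naive samples (adjusted p = 2.16e-10 and 8.4e-11), and from differentiated cultures -1.94 ± 0.14 and -2.10 ± 0.14. Egfr had 129.5, 162 and 182 in EAE biopsies and 146, 169 and 136 in naive ones. It differed from undifferentiated cultures by -3.42 ± 0.12 in EAE and -3.35 ± 0.11 in naive samples, and from differentiated ones by -1.12 ± 0.12 and -0.84 ± 0.14. The biopsy signal of Egfr was therefore nearer to that of differentiated than of undifferentiated cultures.

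Erbb2 was lower in biopsies in all 4 comparisons, with -1.28 ± 0.13 and -1.26 ± 0.11 against undifferentiated and -1.297 ± 0.11 and -1.23 ± 0.12 against differentiated cultures, EAE before naive. Erbb3 was higher than in undifferentiated cultures by 2.01 ± 0.12 in EAE and 1.66 ± 0.12 in naive samples. Erbb4 was higher by 0.86 ± 0.11 and 0.91 ± 0.11, and Fgfr2 by 1.53 ± 0.23 and 1.296 ± 0.11. Against differentiated cultures Erbb3 and Erbb4 were higher in EAE, by 0.69 ± 0.22 and 0.50 ± 0.16 (adjusted p = 0.0132 and 0.011), with overlapping arrays, while in naive samples 1.21 ± 0.52 and 0.53 ± 0.24 were not called (adjusted p = 0.0737 and 0.0913). Against differentiated cultures Fgfr2 was lower, with differences of -0.84 ± 0.12 in EAE and -0.50 ± 0.11 in naive samples. Fgfr3 differed from undifferentiated cultures by 0.01 ± 0.14 in EAE and 0.18 ± 0.11 in naive samples, neither called, and from differentiated ones by -1.05 ± 0.12 in EAE (adjusted p = 8.48e-06) and -0.50 ± 0.23 in naive samples (adjusted p = 0.0883). Biopsies also held neuronal RNA, with a median Snap25 signal of 4532 in EAE and 4543 in naive biopsies, beside 35 to 67 in the SVZ culture groups.

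Among cord cultures, Egfr was high on the arrays where markers of fibroblasts were highest. On the 4 arrays with the highest mean log2 signal of the fibroblast and pericyte list (11.3 to 11.5), all of them naive, Egfr had signals between 205 and 799. On the other 32 it had a median of 16.5 and a highest value of 166, with the list between 5.42 and 10.3. The same 4 arrays had Erbb4 signals between 16.9 and 90.5, under all of the other 32 (162 to 617), and Fgfr1 signals between 824 and 1673, in the upper part of the range. Col1a1, a collagen gene of fibroblasts, had a median of 6007 in undifferentiated thoracic naive cultures, beside 314 in the EAE ones. These 4 arrays were undifferentiated thoracic naive 1 and 3, undifferentiated cervical naive 3 and differentiated thoracic naive 3. Since the list was not a group of the study, no test was made between these arrays.

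**Figure D5:**
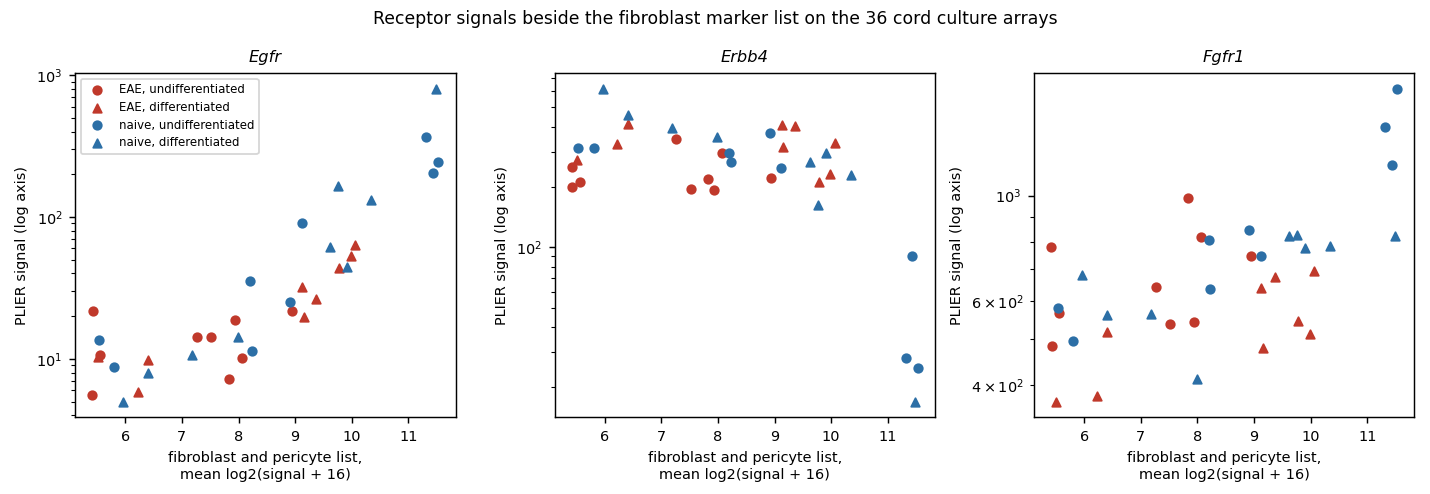
PLIER signal (log axis) of Egfr, Erbb4 and Fgfr1 against the mean log2(signal + 16) of the fibroblast and pericyte marker list on the 36 cord culture arrays, EAE in red and naive in blue, circles undifferentiated and triangles differentiated. The 4 arrays at the right, with list means of 11.3 to 11.5, have Egfr signals of 205 to 799 and Erbb4 signals of 16.9 to 90.5.

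The ligands of the receptors were counted in the same way. Of 11 EGF family ligands, 6 were tested between cord and SVZ in EAE undifferentiated cultures, and 3 were higher and 1 lower in cord, with a median log2 difference of 0.74, beside -0.06 over all tested probe sets, of which 47.7% were called. Tgfa, the gene of TGF-alpha, differed by 4.70 (adjusted p = 1.29e-13), Btc (betacellulin) by 1.496, Hbegf by 1.36 and Areg (amphiregulin) by -0.96. In naive undifferentiated cultures, where 22.9% of all tested probe sets were called, 3 of 8 were higher and none lower, with Tgfa at 3.94 (adjusted p = 0.000297). The ligand Tgfa was thus higher in cord cultures, in which its receptor gene Egfr was lower. With differentiation Tgfa fell by 1.27 in EAE cord cultures and rose by 2.37 in EAE SVZ cultures.

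The 15 feedback inhibitors, which are induced by these receptors and damp them, and the 11 ERK-responsive transcription factors were mostly lower after differentiation. In EAE SVZ cultures 14 of 15 inhibitors fell and 1 rose, with a median change of -1.66 beside 0.03 over all tested probe sets (40% called, 3951 higher and 3893 lower), with Spry4 (Sprouty 4) at -3.86, Spry1 at -3.85, Dusp5 at -3.47 and Spry2 at -3.28. Of the transcription factors 9 of 11 fell and none rose, with a median of -2.83, with Fos at -4.65, Etv4 at -4.54, Egr2 at -4.26 and Egr1 at -3.96. In EAE cord cultures 11 inhibitors fell and 1 rose (median -0.95) and 9 factors fell and 2 rose (median -0.99), beside a median of -0.09 over all. Of all tested probe sets 53.7% were called there, 3179 higher and 7347 lower, a balance that turned to 9420 higher and 4115 lower under 75th percentile scaling. The lists were chosen with earlier results of these data known, and these counts describe them without a test of the list.

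In naive SVZ cultures 8 of 15 inhibitors and 8 of 11 factors fell and none rose, and in naive cord cultures 10 and 8 fell and none rose. Over all tested probe sets 14% were called in naive SVZ cultures, 987 higher and 1754 lower (1585 and 1408 under 75th percentile scaling), and 33.5% in naive cord cultures, 1142 higher and 5420 lower (3234 and 2545 under quantile normalization). Of the 10 ERK pathway kinases and Ras genes, which carry the signal onward, 1 rose and none fell in EAE SVZ cultures, with a median of -0.05. Of the 13 receptor adaptors 2 rose and 6 fell there, and Plcg1 (phospholipase C gamma 1) fell by 1.46. Among FGF ligands Fgf1 rose by 2.62 and Fgf2 by 0.63 in EAE SVZ cultures, the 2 called of 11 tested. The co-receptor gene Gpc4 (glypican 4) rose by 4.46 in EAE SVZ cultures and by 0.95 in EAE cord cultures. Fgfrl1, an FGF receptor relative without a kinase, fell by 2.04 in EAE cord cultures.

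The same lists were counted between EAE and naive cultures. In undifferentiated caudal cultures 2 of 6 EGF family ligands, 3 of 9 FGF ligands, 4 of 15 feedback inhibitors and 4 of 11 transcription factors were lower in EAE and none was higher. Fgf2 differed by -1.41 and Fgf7 by -1.26, Errfi1, an inhibitor of EGF receptors, by -1.501, and Egr1 by -1.03. The median change of the inhibitors was -0.55, beside -0.14 over all tested probe sets. Of these 17.2% were called, 584 higher and 2443 lower, and under quantile normalization 1754 higher and 1702 lower, and the list counts were not made under that scaling. In undifferentiated or differentiated SVZ cultures and in SVZ biopsies no gene of the 8 pathway lists was called. Of all tested probe sets 0%, 0% and 0.0151% were called there, so the absence of calls says little about these lists.

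Over the 18 group means, the 7 members followed each other only in part. These correlations are across groups, which share regions, stages and the 54 arrays, and are given without a test. Egfr and Erbb3 had the strongest relation, with r = -0.90, and the others lay between -0.74 (Fgfr2 with Fgfr3) and 0.72 (Erbb2 with Fgfr3). Among 16393 other probe sets with 1 gene symbol, those with the highest r over the 18 group means were Tead2 (0.98), Mfap2 (0.97) and Evc2 (0.97) for Egfr, and Nr2f1 (0.97), Ppp1r2l1 (0.96) and Prkra (0.96) for Erbb2. For Erbb3 they were Cpm (0.98), Efna1 (0.98) and Map7 (0.97), and for Erbb4 Fut9 (0.92), Tsga10 (0.88) and Camkmt (0.86). For Fgfr1 they were Ano6 (0.98), Aco1 (0.97) and Nes (0.97), for Fgfr2 Dnajb2 (0.98), Rab4a (0.98) and Slc48a1 (0.98), and for Fgfr3 Rnpep (0.96), Samhd1 (0.96) and Klhl7 (0.96).

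The authors' deposited table gives ratios of EAE over naive means and unadjusted p-values for the same arrays. For Fgfr3 its ratio was 1.81 in undifferentiated cervical cultures (unadjusted p = 0.00211) and 2.28 in caudal ones (unadjusted p = 0.0017), and 0.544 in differentiated cervical cultures (unadjusted p = 0.00581), in that table. For Egfr the authors' deposited table lists ratios of 0.0775 and 0.103 in undifferentiated cervical and thoracic cultures, with unadjusted p of 0.374 and 0.124. The naive means behind these ratios include the arrays with Egfr signals of 365, 205 and 245.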

How the data were processed

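The deposited intensity values are PLIER signals on a linear scale for each probe set, made by the authors, per the file headers, with GC-based background correction and global median normalization. The submitters' processing notes name Affymetrix Expression Console with no version. Array type, genome build and annotation version were not found in the labels or headers used here. For its comparisons the authors' deposited table also gives a ratio and an unadjusted p-value. No 2 arrays were identical (highest correlation 0.995).

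Values of log2(signal + 16) were fitted in R 4.3.3 by limma 3.58.1 (lmFit, then eBayes, with two-sided tests). A fit took every main probe set that passed a signal of 50 on 3 or more of its arrays, and p-values were adjusted over all of these by Benjamini-Hochberg. Calls needed an adjusted p of at most 0.05 and a fold of at least 1.2. A comparison of 2 groups used their 6 arrays, and one over several regions was a contrast in 1 fit of the groups concerned. The fit was tested on simulated data. Gene symbols were matched to RefSeq's gene table for 18580 of the 19852 probe sets with 1 symbol.

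Every member could be named in every comparison, and those the results turn on are given. From each of 8 pathway lists up to 4 called genes with the largest change in a comparison could be named, and for each member the 3 probe sets most correlated over group means. The members and lists were chosen with earlier results of these data known. Alternatives were a pseudocount of 1, no signal filter, quantile normalization, 75th percentile scaling, a single fit of all 18 groups, the replicate number as a block, the methods' t-test (on the same log2 values, with adjusted p and the fold limit), each replicate left out, and arrays with a mean correlation under 0.96 left out. Others were added after seeing the data: a random block over cord levels, a fit of the SVZ arrays alone, and leaving out the array least like its group in 5 groups. Of 33 compared pairs of groups, 2 had same-numbered replicates that all deviated together (every correlation over 0.1), so the numbers were not taken as pairs. Between 2 cord levels of a group this held in 4 of 12 pairs, with correlations of up to 0.907, and the means over 3 levels treat their 9 arrays as independent; the random block over cord levels is the alternative that does not.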

Additional observations from a re-analysis of the deposited data

Results flagged for a closer look

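Several receptor changes differed between regions or stages by a test of the difference itself. In EAE cultures the change with differentiation in cord minus that in SVZ was -1.47 for Erbb2, -1.54 for Erbb3, 0.70 for Fgfr1 and -3.07 for Fgfr3 on the log2 scale. For Egfr it was 2.80, a value fixed by background: its signal was above 50 on none of the undifferentiated EAE cord arrays, so no fall could be measured there. In naive cultures it was -1.40 for Fgfr3. In differentiated cultures the Fgfr3 difference between EAE and naive differed by -1.14 between cord and SVZ (cord minus SVZ). In SVZ the difference was itself not called (0.64, adjusted p = 0.242), and the test of the regional difference passed in 3 of 11 alternatives. In cord cultures the EAE effect after differentiation minus that before was -1.28 for Fgfr3 and -0.61 for Erbb2.

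Other differences drew notice because every EAE array lay on one side of the naive arrays in one place and on the other side in another. These differences were not tested, and how often such a pattern occurs over all probe sets is not given here. For Fgfr3 the EAE effect in differentiated cervical cultures minus that in undifferentiated cervical cultures was -1.56, and minus that in differentiated SVZ cultures -1.38. The effect in differentiated thoracic cultures minus that in differentiated SVZ cultures was -1.60. The effect in differentiated caudal cultures exceeded that in differentiated cervical cultures by 0.94 and that in differentiated thoracic cultures by 1.16. For Egfr the EAE effect in undifferentiated caudal cultures minus that in undifferentiated SVZ cultures was -1.09, with all but 1 of the 6 caudal signals under 50.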

How the results depend on the processing

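Counts below are of members called, given under the alternative against the main setting. The share of all tested probe sets called under each alternative is not given beside them. No called member changed sign under any alternative run. Over all 7 members and 29 comparisons, 806 alternative values of called members kept the call and 92 lost it, and 1414 values of members not called stayed so and 56 gained it. With all 18 groups in 1 fit the EAE comparison gave 1 against 0 in undifferentiated cervical, 3 against 6 in undifferentiated caudal and 1 against 0 in differentiated thoracic cultures. The same fit gave 4 against 1 for differentiation in naive SVZ, 3 against 6 in EAE cord, 2 against 1 for its naive difference between regions and 3 against 7 for EAE biopsies against differentiated cultures. The methods' t-test, with adjusted p, gave 1 against 6 in undifferentiated caudal cultures. Without arrays under a mean correlation of 0.96 the counts were 2 against 0 for EAE in differentiated SVZ and 7 against 4 for naive biopsies against differentiated cultures; this setting gave no value where it emptied the naive undifferentiated cervical, undifferentiated thoracic or differentiated thoracic group. Without the array least like its group the EAE counts were 1 against 0 in undifferentiated thoracic cultures, 2 against 0 in differentiated SVZ, 6 against 3 in undifferentiated cord, 1 against 0 and 2 against 1 for the cord minus SVZ effect before and after differentiation, 4 against 2 for the stage difference in cord and 1 against 0 in SVZ. For differentiation that setting gave 4 against 1 in naive SVZ, 6 against 3 in naive cord and 2 against 1 for their difference, and 7 against 4 for naive biopsies against differentiated cultures. Egfr in naive differentiated cord against SVZ gained a call at -2.92 without the least similar arrays, which include the highest naive cord signals and the lowest naive SVZ signal. The 6 SVZ arrays alone gave 4 and 75th percentile scaling 2, against 1, for naive SVZ differentiation. The random block over cord levels ended the Egfr call for EAE in undifferentiated cord (adjusted p = 0.0836), as did quantile normalization and 75th percentile scaling, and it gave 0 against 1 for EAE in differentiated cord and 1 against 2 for the stage difference in cord. For the cord minus SVZ effect of EAE in differentiated cultures it gave 0 against 1, as did log2(signal + 1), no signal filter, quantile normalization and 75th percentile scaling. With replicates left out the counts ranged from 0 to 1 for EAE in undifferentiated thoracic cultures, 3 to 6 in undifferentiated caudal, 0 to 2 in differentiated SVZ, 1 to 3 in undifferentiated cord and 0 to 2 in differentiated cord, and were 0 for the cord minus SVZ effect after differentiation. They ranged from 1 to 4 for cord against SVZ in naive undifferentiated and 1 to 5 in naive differentiated cultures, 0 to 1 for differentiation in naive SVZ and for its difference between regions, 4 to 7 for naive biopsies against differentiated cultures, and were 1 for the stage difference in cord. The cause of these shifts was not tested, beyond the smaller number of arrays where some were left out. The replicate numbers pair no samples that the labels describe as related; with the replicate block the EAE count in undifferentiated caudal cultures was 5 against 6, Erbb4 losing its call, and the other 28 counts were as in the main setting. A scaling moved the median change of all tested probe sets by over 0.1 in 21 comparisons, most for cord against SVZ in EAE differentiated cultures, -0.21 in the main setting and 0.27 under 75th percentile scaling. Signals near background, as for Egfr in cord, have no resolved order.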
